A study of Danio rerio with 36 samples.

Results

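The genes described here are the Cxcl12 chemokines of the zebrafish with their receptors, and the receptors and exporter of the lipid mediator sphingosine-1-phosphate (S1P). They are 10 named genes (cxcl12a, cxcl12b, cxcr4a, cxcr4b, ackr3a, ackr3b, s1pr1, s1pr2, s1pr3a and spns2), and each was matched to 1 of the 32520 Ensembl genes in the raw count table, 7 by their own symbol and 3 by elimination. The identifiers of cxcl12a (ENSDARG00000037116), cxcr4b (ENSDARG00000041959) and ackr3a (ENSDARG00000062478) were taken as the ones left once the paralog had been matched, since the name table gives only the family symbol for them. The other identifiers were ENSDARG00000055100 for cxcl12b, ENSDARG00000057633 for cxcr4a, ENSDARG00000058179 for ackr3b, ENSDARG00000042690 for s1pr1, ENSDARG00000036548 for s1pr2, ENSDARG00000042470 for s1pr3a and ENSDARG00000061017 for spns2. How reads that match both paralogs of a pair were counted is not given in the sources used here.

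The samples were adult AngioTag fish, Tg(kdrl:egfp-2a-rpl10a3xHA)y530, in which the endothelial kdrl promoter drives EGFP and an HA-tagged ribosomal protein, Rpl10a. In translating ribosome affinity purification (TRAP), an antibody to HA pulls down the tagged ribosomes with the mRNA on them (pulldown), and the total RNA of the same lysate is sequenced beside it (input). The 18 libraries used were the pulldown and the input of skin, muscle and whole fish, each in 3 replicates, and every library came from the same transgenic line with no treatment. Each replicate pooled the organs of several fish, so animals cannot be told apart within it. The libraries of liver, heart and brain were not used here. Replicate 2 of skin was assigned by elimination, and every call of a member within skin was the same without its input or without its pulldown.

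Cxcl12 is a secreted chemokine that signals through the G protein-coupled receptor Cxcr4, and the atypical receptor Ackr3 takes the same ligand up and clears it. Zebrafish keep a pair of copies of each, and these are known for guiding migrating cells, among them primordial germ cells, the lateral line primordium and growing arteries. S1P is made inside cells, is carried out of endothelial cells by the transporter Spns2 and acts on S1P receptors, through which it is known to steady vessel walls and to restrain sprouting.

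Total counts ranged from 9202302 to 26255588 per library. In the whole fish pulldowns 53.8% to 76.2% of the counts fell on 1 gene, which left 5395543 to 7876345 counts for all others. The pulldown was checked on the endothelial genes kdrl and cdh5, which were enriched in all 3 tissues, with log2 fold changes in skin, muscle and whole fish of 4.47, 5.43 and 3.34 for kdrl and of 5.11, 6.33 and 3.90 for cdh5. Of the endothelial marker list, 11 of 13 tested genes were enriched in skin, 12 of 13 in muscle and 10 of 12 in the whole fish. Levels are given as CPM, the counts of a gene relative to its library, scaled within a tissue by the trimmed mean of M values (TMM). They can be compared between libraries of that tissue but not between genes, since they are not divided by gene length. Fold changes and standard errors (SE) come from quasi-likelihood tests in edgeR, one-sided in each direction, with p-values adjusted over all genes by the Benjamini-Hochberg method. A gene was called enriched or depleted where the adjusted p lay under 0.05 and the log2 fold change reached 1.2 in size. In bulk samples of this kind, fewer cells of a type and less RNA per cell cannot be told apart.

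Across the 10 genes, the exporter spns2 and the ligand cxcl12b were enriched in the pulldown of all 3 tissues, s1pr1 was enriched in skin and muscle, and the receptors cxcr4a and ackr3b were enriched in muscle alone among the 3 tissues. The paralogous ligand cxcl12a was depleted in skin and not called in muscle. It was called enriched in the whole fish, but that call was lost in 5 of the 6 fits that left out 1 library. The whole fish call of spns2 was lost in 3 of these 6 fits. The receptor s1pr2 was depleted in skin and muscle, in muscle with only 4 to 6 counts per pulldown library. In skin 9 members passed the filter on low counts, of which 3 were enriched, beside 21.5% of all 17153 genes tested, and 2 were depleted, beside 18.2%. In muscle 9 were tested, with 5 enriched beside 22.8% of 14849 genes and 1 depleted beside 21.0%. Of the members, 7 were tested in the whole fish, with 3 enriched beside 11.3% of 16923 genes and 0 depleted beside 15.5%. The tested members had a median log2 fold change of 0.21, 2.93 and 1.71 in skin, muscle and whole fish, against 0.04, 0.07 and -0.09 over all genes tested.

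**Figure D1:**
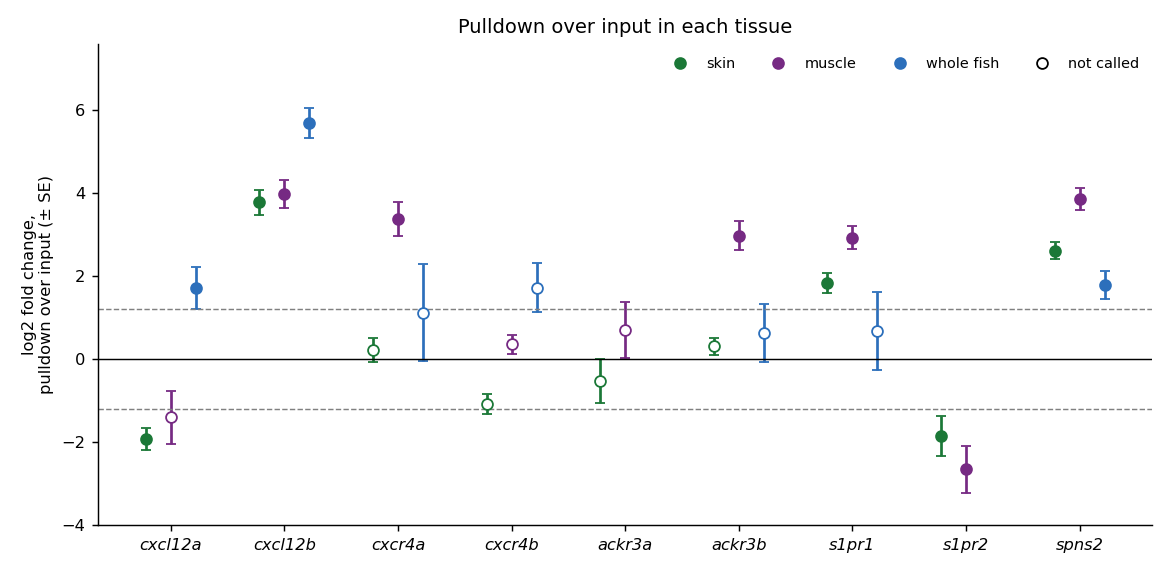
Log2 fold change of pulldown over input (vertical axis) for each member in skin, muscle and whole fish, with bars of 1 standard error and dashed lines at the threshold of 1.2; filled points were called, open points were not, and members that failed the filter on low counts have no point. cxcl12b and spns2 are called above the line in each tissue, while cxcl12a lies at -1.93 in skin and 1.71 in the whole fish.

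The ligand cxcl12b had the largest log2 fold change of the members in each tissue. In muscle spns2 was close to it (3.86, SE 0.27, against 3.98, SE 0.33), and this gap was not tested. In skin its input libraries held 18.98, 28.5 and 14.2 CPM and its pulldown libraries 332, 236 and 279 CPM. The 3 pulldowns all lay above the 3 inputs, and the log2 fold change was 3.78 (SE 0.30, adjusted p = 5.63e-06), which is 13.7-fold. Only 1.11% of the genes tested in skin had a larger fold change.

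In muscle cxcl12b rose from 65.3, 84.8 and 45.9 CPM in the input to 889, 1104 and 1101 CPM in the pulldown, again without overlap. The log2 fold change was 3.98 (SE 0.33, adjusted p = 8.91e-06). Its whole fish level rose from 11.12, 7.50 and 11.2 CPM to 539, 384 and 618 CPM, a log2 fold change of 5.69 (SE 0.36, adjusted p = 0.000314) or 51.6-fold, and 0.638% of genes were higher. The spread between replicates was small against these changes: the log2 ratio of pulldown to input of the same replicate number ran from 3.03 to 4.25 in skin, from 3.69 to 4.57 in muscle and from 5.54 to 5.72 in the whole fish.

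The paralog cxcl12a was abundant in every input and moved in different directions by tissue. In skin its input libraries held 691, 1129 and 843 CPM and its pulldowns 200, 279 and 220 CPM. Every pulldown lay below every input, with a log2 fold change of -1.93 (SE 0.28, adjusted p = 0.000198). Scaling by library size alone, which moves the median of all genes in skin to 0.87, put it at -1.11, inside the fold threshold.

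In muscle the cxcl12a inputs held 182, 245 and 194 CPM and the pulldowns 31.7, 179 and 23.9 CPM. The pulldown of replicate 2 stood apart from the other two, though it too was below every input, and the gene was not called (log2 fold change -1.40, SE 0.65, adjusted p = 0.0951). Without that library the value was -2.86 (adjusted p = 0.000124), and with replicate number as a block, which pairs each pulldown with the input of its own number, it was -2.02 (adjusted p = 2.28e-07). With no filter on low counts it was also called (-1.23, adjusted p = 0.0114). The 9 mural cell and fibroblast markers summed to 4583 CPM in the same library against 2458 and 2194 CPM in the other muscle pulldowns, which was rgs5a, a pericyte gene, at 4391 CPM against 2215 and 1942 CPM. The other 8 summed to 191 CPM there against 242 and 252 CPM. In the muscle inputs rgs5a held 164, 267 and 358 CPM, less than in any muscle pulldown. The other 8 summed to 1084, 769 and 1335 CPM in those inputs, more than in any muscle pulldown. Of all 9 genes 5 were depleted in the muscle pulldown, beside 21.0% of all genes, and 1 was enriched, beside 22.8%. None of the 9 was at 0 in all pulldowns. Their part in the cxcl12a value was not tested.

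Whole fish libraries showed the opposite for cxcl12a, with 123, 97.5 and 201 CPM in the input and 272, 322 and 791 CPM in the pulldown. The groups did not overlap, and the log2 fold change of 1.71 (SE 0.50, adjusted p = 0.0487) passed the threshold by little. It missed the call in 5 of the 6 fits that left out 1 library, all but the fit without pulldown replicate 1 (log2 fold change 0.92 to 2.03), with each other normalisation tried, with no filter on low counts and in a fit of all 18 libraries. Replicate 3 of the whole fish pulldown was the highest for cxcl12a and also held the most endothelial marker counts, a summed 1988 CPM against 874 and 650 CPM. The part of these markers in the cxcl12a value was not tested.

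**Figure D2:**
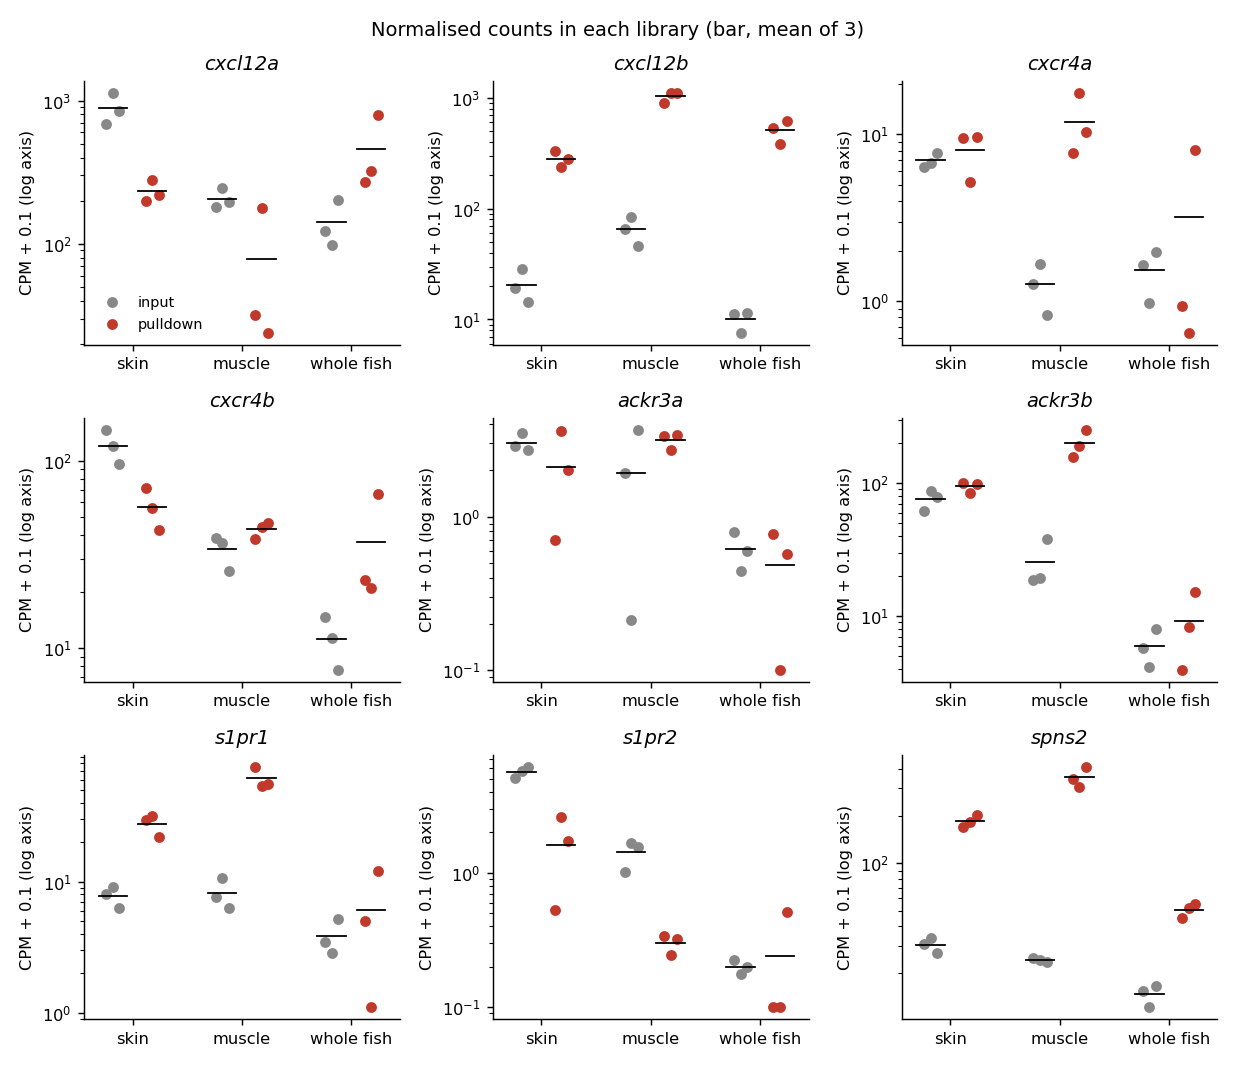
TMM-scaled CPM plus an offset of 0.1 (vertical log axis) of 9 members in every library, inputs in grey and pulldowns in red, with a black bar at the mean of 3 libraries. Pulldowns of cxcl12b and spns2 lie above the inputs in each tissue, cxcl12a pulldowns lie below the inputs in skin (200 to 279 against 691 to 1129 CPM), and muscle pulldown replicate 2 is the high cxcl12a point at 179 CPM.

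The balance of the ligand pair can be read within a library, with no scaling between libraries, as the log2 ratio of cxcl12a to cxcl12b counts. In skin this ratio was 5.18, 5.31 and 5.89 in the input and -0.73, 0.24 and -0.34 in the pulldown, a shift of -5.74. In muscle it was 1.48, 1.53 and 2.08 in the input and -4.81, -2.63 and -5.53 in the pulldown, a shift of -6.02. The whole fish ratio was 3.47, 3.70 and 4.16 in the input and -0.99, -0.26 and 0.36 in the pulldown, a shift of -4.07. Reads of cxcl12a thus outnumbered those of cxcl12b in all 9 inputs, and the ratio was lower in every pulldown than in every input of its tissue. The exact permutation test gave p = 0.1 in each tissue, two-sided, which is the smallest p that 3 against 3 libraries allow.

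**Figure D3:**
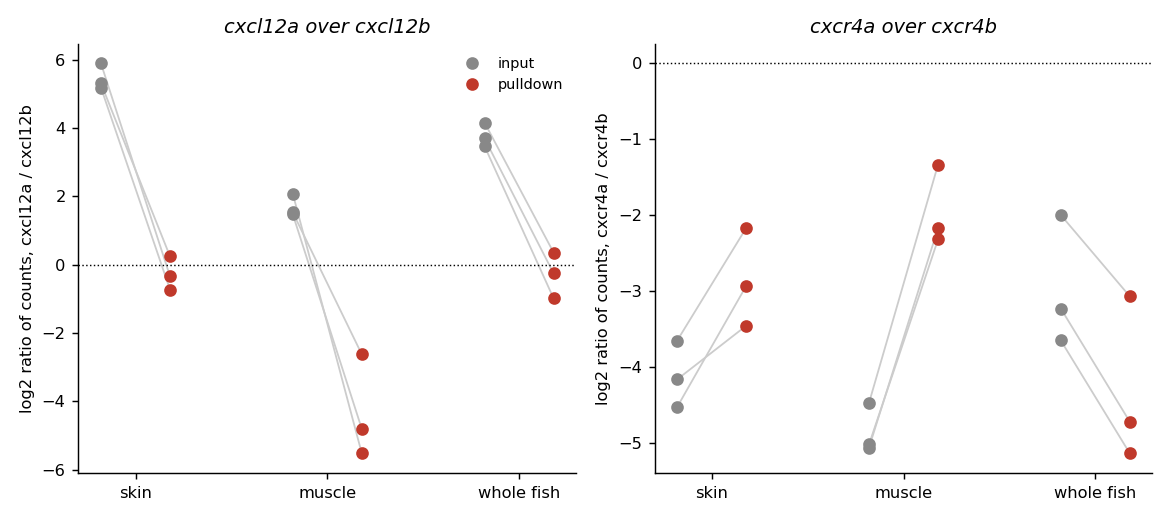
Log2 ratio of counts within each library (vertical axis) of cxcl12a to cxcl12b (left) and of cxcr4a to cxcr4b (right), with grey lines joining the input and the pulldown of the same replicate number. The ligand ratio drops by 4.07 to 6.02 on average in the 3 tissues, while the receptor ratio rises in skin (1.26) and muscle (2.91) and overlaps between input and pulldown in the whole fish, where each line falls (-1.49 to -1.07).

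The receptor cxcr4a, the copy expressed in embryonic zebrafish vessels, was enriched in muscle. Its inputs there held 1.17, 1.58 and 0.73 CPM and its pulldowns 7.64, 17.6 and 10.3 CPM. The pulldowns were all above the inputs, with a log2 fold change of 3.37 (SE 0.42, adjusted p = 7.94e-05) that rests on 9 to 18 counts per input library. In skin the inputs (6.29, 6.64 and 7.68 CPM) and the pulldowns (9.35, 5.05 and 9.53 CPM) overlapped, and the log2 fold change was 0.21 (SE 0.29, adjusted p = 0.539).

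Whole fish cxcr4a was at 1.55, 0.88 and 1.88 CPM in the input and at 0.84, 0.55 and 7.92 CPM in the pulldown. The higher mean of the pulldown came from replicate 3 alone (log2 fold change 1.11, SE 1.17, adjusted p = 0.56), and the value without it was -1.195.

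The paralog cxcr4b, which immune cells and migrating cell groups of the zebrafish use, was called in none of the 3 tissues. In skin it fell from 146, 119 and 96.8 CPM in the input to 71.5, 55.7 and 42.9 CPM in the pulldown without overlap. The log2 fold change of -1.09 (SE 0.25) passed the test (adjusted p = 0.00316) but not the fold threshold, and it passed both without skin input replicate 3 (-1.26) or skin pulldown replicate 1 (-1.33). Of the 9 leukocyte markers, 4 were depleted in the same pulldowns, beside 18.2% of all genes, and 1, csf1ra, was enriched, beside 21.5%. None of these markers was at 0. Their summed levels were 580 to 722 CPM against 2212 to 3383 CPM in the input, but most of this was cd74a, and the other 8 genes summed to 239 to 309 CPM in the pulldown and 270 to 310 CPM in the input, which overlapped. Their part in the cxcr4b value was not tested.

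In muscle cxcr4b was at 38.9, 36.2 and 25.6 CPM in the input and 38.2, 44.4 and 46.3 CPM in the pulldown, which overlapped (log2 fold change 0.35, SE 0.24, adjusted p = 0.215), though library size alone put it at 2.03, called, beside the shifted median of 1.79. In the whole fish it was at 14.7, 11.3 and 7.57 CPM in the input and 23.1, 20.8 and 66.6 CPM in the pulldown. These did not overlap, but the log2 fold change of 1.72 (SE 0.59) did not pass the test (adjusted p = 0.0805). In a fit of all 18 libraries it was called enriched (1.39, adjusted p = 0.0223). Without whole fish pulldown replicate 3 the value was 0.82.

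The log2 ratio of cxcr4a to cxcr4b counts was below 0 in all 18 libraries. It rose in skin from -4.52, -4.16 and -3.65 in the input to -2.93, -3.45 and -2.17 in the pulldown, and in muscle from -5.02, -4.47 and -5.06 to -2.32, -1.33 and -2.17, with no overlap in either tissue (exact permutation p = 0.1 each, the smallest possible). Whole fish input (-3.23, -3.65 and -1.995) and pulldown (-4.72, -5.14 and -3.07) overlapped (exact permutation p = 0.3). Within each pair of the same number, however, the whole fish ratio was lower in the pulldown, by -1.49, -1.49 and -1.07, whereas it was higher in every skin pair (0.71 to 1.60) and every muscle pair (2.70 to 3.14); this difference was not tested.

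The scavenging receptor ackr3b followed cxcr4a, with a call in muscle alone among the 3 tissues. Its muscle inputs held 18.8, 19.2 and 38.1 CPM and its muscle pulldowns 158, 191 and 250 CPM. The log2 fold change was 2.98 (SE 0.35, adjusted p = 6.13e-05), or 7.88-fold. In skin the inputs at 61.5, 88.0 and 78.5 CPM and the pulldowns at 100, 84.2 and 99.3 CPM overlapped (log2 fold change 0.31, SE 0.21, adjusted p = 0.204). Whole fish inputs (5.70, 4.02 and 7.87 CPM) and pulldowns (3.86, 8.21 and 15.2 CPM) overlapped as well, with a log2 fold change of 0.63 (SE 0.70, adjusted p = 0.582).

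The paralog ackr3a was near the lower end of what these libraries measure. In skin it was at 2.80, 3.39 and 2.61 CPM in the input and 0.60, 3.55 and 1.92 CPM in the pulldown, and in muscle at 1.82, 0.11 and 3.57 CPM in the input and 3.27, 2.61 and 3.296 CPM in the pulldown. The groups overlapped in both tissues, and neither the log2 fold change of -0.52 in skin (SE 0.53, adjusted p = 0.415) nor that of 0.70 in muscle (SE 0.68, adjusted p = 0.387) passed the test. Library size alone put the muscle value at 2.44, called, beside the shifted median of 1.79. No whole fish library reached 1 CPM and the gene failed the filter on low counts.

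Among the S1P genes, the transporter spns2 was enriched in all 3 tissues. In skin it rose from 30.8, 33.5 and 26.7 CPM in the input to 171, 183 and 204 CPM in the pulldown, a log2 fold change of 2.62 (SE 0.21, adjusted p = 5.59e-06). In muscle it rose from 24.9, 24.2 and 23.7 CPM to 346, 304 and 408 CPM, a log2 fold change of 3.86 (SE 0.27, adjusted p = 4.25e-06), or 14.6-fold. No pulldown overlapped an input in either tissue.

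In the whole fish spns2 rose from 15.4, 12.1 and 16.6 CPM to 45.2, 51.6 and 55.0 CPM, also without overlap, with a log2 fold change of 1.78 (SE 0.33, adjusted p = 0.00899). This call was lost when any 1 whole fish input library was left out (log2 fold change 1.63 to 1.84, adjusted p = 0.0625 to 0.0993), and with scaling by library size alone (0.86, adjusted p = 0.469), which moves the median of all genes there to -1.01.

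The receptor s1pr1, the main S1P receptor of endothelium in mammals, was enriched in skin and muscle. In skin it rose from 7.99, 9.06 and 6.15 CPM to 29.6, 31.6 and 21.9 CPM, a log2 fold change of 1.84 (SE 0.24, adjusted p = 9.11e-05). In muscle it rose from 7.599, 10.5 and 6.24 CPM to 74.7, 53.8 and 56.1 CPM, a log2 fold change of 2.93 (SE 0.28, adjusted p = 1.64e-05). The pulldowns lay above the inputs in both tissues. In the whole fish the inputs (3.38, 2.76 and 5.05 CPM) and the pulldowns (4.86, 1.00 and 11.998 CPM) overlapped, the log2 fold change was 0.68 (SE 0.95, adjusted p = 0.674), and it was -0.50 without pulldown replicate 3.

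The receptor s1pr2, which zebrafish embryos need for heart precursors to meet at the midline, went the other way. In skin it fell from 4.996, 5.60 and 6.01 CPM to 0.43, 2.49 and 1.61 CPM, with a log2 fold change of -1.86 (SE 0.49, adjusted p = 0.00724). In muscle it fell from 0.91, 1.58 and 1.46 CPM to 0.24, 0.15 and 0.22 CPM, with a log2 fold change of -2.66 (SE 0.56, adjusted p = 0.00261). Every pulldown lay below every input, but the muscle pulldowns held only 4 to 6 counts each, and the gene failed the filter in muscle without input replicate 2 or without input replicate 3. Scaling by library size alone put these values at -1.02 in skin and -0.91 in muscle, both no longer called, beside shifted medians of all genes of 0.87 and 1.79.

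The receptor s1pr3a failed the filter in every tissue, with 0 to 15 counts per library. In muscle its inputs held 6, 8 and 10 counts and its pulldowns 1, 2 and 0, with every pulldown below every input. In skin the levels of input and pulldown overlapped. It had 0 counts in all 3 whole fish pulldowns, which allows a level of up to 0.252, 0.274 and 0.177 CPM (3 counts per library, counting error only). s1pr2 also failed the filter in the whole fish, where its libraries held 0 to 7 counts.

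Skin and muscle differed in how far 5 members were enriched, tested as the interaction of tissue and fraction in 1 fit of their 12 libraries, two-sided. All 5 were more enriched in muscle, beside 12.4% of the 18669 genes tested, and 0 members were more enriched in skin, beside 11.4%. The difference, skin minus muscle on the log2 scale, was -3.11 for cxcr4a (95% interval -4.23 to -1.99, adjusted p = 0.000887), -2.62 for ackr3b (-3.51 to -1.72, adjusted p = 0.00063) and -1.40 for cxcr4b (-2.15 to -0.66, adjusted p = 0.01). For the S1P genes it was -1.201 for spns2 (-1.86 to -0.54, adjusted p = 0.0116) and -1.05 for s1pr1 (-1.78 to -0.32, adjusted p = 0.038). The s1pr1 call was lost in 5 of the 12 fits that left out 1 library, where the difference ran from -1.12 to -0.92. It was also lost with RLE size factors (-0.999, adjusted p = 0.051). In a fit of all 18 libraries ackr3b was the only one of the 5 still called, while the other differences stayed near their size, at -3.11 for cxcr4a (SE 1.09, adjusted p = 0.151), -1.42 for cxcr4b (SE 0.60, adjusted p = 0.243), -1.06 for s1pr1 (SE 0.79, adjusted p = 0.543) and -1.22 for spns2 (SE 0.33, adjusted p = 0.055). That fit takes 1 spread estimate per gene over all 3 tissues. The spread between replicates, as a biological coefficient of variation, was 0.849 in the whole fish against 0.273 in skin and 0.327 in muscle.

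The enrichment of cxcl12b did not pass the test between these tissues, with a difference of -0.16 (95% interval -1.07 to 0.76, adjusted p = 0.82). That of cxcl12a was -0.48 (-2.08 to 1.12, adjusted p = 0.681), and that of s1pr2 was 0.84 (-0.75 to 2.43, adjusted p = 0.437). The endothelial marker list had a median difference of -0.88 over 13 genes (range -1.41 to 0.02), of which 4 were called higher in muscle, against 0.24 over all genes. kdrl differed by -0.91 (adjusted p = 0.116) and cdh5 by -1.18 (adjusted p = 0.0791). The values of s1pr1, spns2 and cxcr4b therefore lay within the range of the endothelial list, and those of cxcr4a and ackr3b lay outside it.

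The input and the pulldown levels behind these differences were compared in a fit of the 9 inputs and a fit of the 9 pulldowns. Both fits include the whole fish, and each gene has 1 spread estimate over the 3 tissues. In the input 4 members were higher in skin than in muscle, beside 24.7% of 18473 genes: cxcr4a by 1.495 on the log2 scale (SE 0.37, adjusted p = 0.00556), cxcl12a by 1.01 (SE 0.31, adjusted p = 0.0174), s1pr2 by 1.00 (SE 0.33, adjusted p = 0.0261) and cxcr4b by 0.75 (SE 0.27, adjusted p = 0.0397). The input of ackr3b did not pass the test, at 29.0, 42.0 and 38.0 CPM in skin and 19.4, 19.3 and 39.0 CPM in muscle on the scale of that fit, which overlapped (0.49, 95% interval -0.21 to 1.19, adjusted p = 0.226). The call was lost without 1 library or another for cxcl12a, s1pr2 and cxcr4b, in 3, 3 and 5 of 9 fits, the fit without skin input replicate 2 being among them for each. Another 3 were higher in muscle, beside 25.9%, where cxcl12b differed by -2.76 (SE 0.32, adjusted p = 2.51e-05), s1pr1 by -1.15 (SE 0.28, adjusted p = 0.00493) and spns2 by -0.77 (SE 0.19, adjusted p = 0.00487). Scaling by library size alone turned the values of s1pr1 (0.37) and spns2 (0.74) around but not that of cxcl12b.

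In the pulldown 3 members were higher in muscle than in skin, beside 3.48% of 18544 genes, and 0 were higher in skin, beside 7.43%. On the scale of that fit, cxcl12b was at 253, 177 and 222 CPM in skin and at 1304, 1651 and 1663 CPM in muscle, a difference of -2.82 (SE 0.32, adjusted p = 0.00116) close to that of its input. ackr3b was at 76.2, 63.0 and 79.1 CPM in skin and 232, 286 and 378 CPM in muscle (-2.04, SE 0.47, adjusted p = 0.0219), a call that was lost in all 6 fits that left out a skin or muscle pulldown and with scaling by library size alone (-1.51, adjusted p = 0.118). spns2 was at 130, 137 and 163 CPM in skin and 507, 455 and 617 CPM in muscle (-1.88, SE 0.27, adjusted p = 0.0034). The groups did not overlap for any of the 3 genes. s1pr1, at 22.6, 23.6 and 17.4 CPM in skin and 110, 80.5 and 84.7 CPM in muscle, did not overlap either but missed the threshold (-2.11, SE 0.70, adjusted p = 0.0809). It was called with DESeq2 (-2.01, adjusted p = 0.0369) and without whole fish pulldown replicate 2 (-2.07, adjusted p = 0.00682) or 3 (-2.07, adjusted p = 0.0256).

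Endothelial markers were themselves higher in the muscle pulldown: 9 of 13 were called, with a median difference of -2.07. Each member was therefore also set against the summed counts of these 13 genes within its own library, which needs no scaling. On this measure cxcl12b was at a log2 ratio of -2.03, -2.29 and -2.46 in skin and -1.87, -1.70 and -2.11 in muscle, which overlapped (exact permutation p = 0.2). ackr3b was at -3.76, -3.78 and -3.95 in skin and -4.36, -4.23 and -4.24 in muscle, so that it was higher in skin by 0.45 relative to the markers. spns2 was likewise higher in skin by 0.59, cxcr4b by 1.88 and cxcl12a by 3.67, each with no overlap (exact permutation p = 0.1, the smallest possible). cxcr4a and s1pr1 overlapped, with differences of 0.97 and 0.36. The lower enrichment of ackr3b and cxcr4b in skin stood beside ratios to the endothelial markers that were not lower there. This ratio also rises where the markers themselves fall. A sum of counts also gives the most abundant markers the most weight. In the pulldown fit, where the median marker differed by -2.07, ackr3b differed by -2.04 and spns2 by -1.88. There cxcr4b differed by -0.56 and cxcl12a by 0.62. In skin the pulldowns of cxcl12a and cxcr4b lay below their inputs (log2 fold changes -1.93 and -1.09). From which cells the reads came was not tested.

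**Figure D4:**
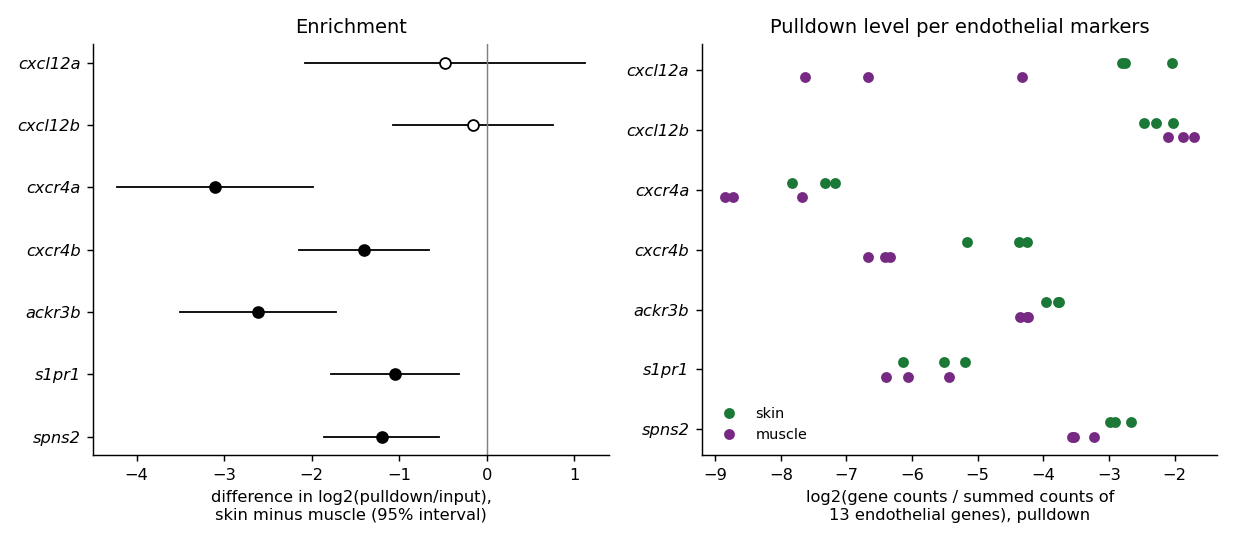
Left, difference in log2 pulldown over input between skin and muscle with 95% intervals, filled where called, for 7 members; right, log2 ratio of each member to the summed counts of 13 endothelial genes in every skin (green) and muscle (purple) pulldown. The 5 called members lie to the left of 0 in the first panel, from -3.11 to -1.05, whereas in the second panel no member is lower in skin without overlap.

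Against the whole fish, cxcl12b was less enriched in skin, with a log2 difference of -1.54 (SE 0.48, adjusted p = 0.0384), and in muscle, with one of -1.60 (SE 0.46, adjusted p = 0.0323) that turned to 0.86 with scaling by library size alone. spns2 went the other way and was more enriched in skin by 1.22 (SE 0.36, adjusted p = 0.0329) and in muscle by 2.19 (SE 0.37, adjusted p = 0.00357). Over all genes the median difference from the whole fish was 0.76 for skin and 0.28 for muscle. Over the 13 endothelial markers it was -1.11 for skin and -0.29 for muscle. In all, 1 member was more enriched in skin than in the whole fish (beside 17.4% of 20173 genes) and 3 less (beside 4.42%), the others being cxcl12a (-3.30, SE 0.64, adjusted p = 0.00485) and cxcr4b (-2.47, SE 0.69, adjusted p = 0.0251). With replicate number as a block, cxcl12b (adjusted p = 0.0537), cxcr4b (adjusted p = 0.0813) and spns2 (adjusted p = 0.067) were no longer called between skin and whole fish. Of the 12 fits that left out 1 library, 9 lost the call of cxcl12b, 8 that of spns2 and 6 that of cxcr4b, while cxcl12a kept it in all 12. Scaling by library size alone ended the calls of cxcl12a (-2.05, adjusted p = 0.0572), cxcl12b (-0.23, adjusted p = 0.797) and cxcr4b (-1.22, adjusted p = 0.264), and RLE size factors that of spns2 (0.86, adjusted p = 0.103). Between muscle and whole fish 2 members were more enriched in muscle (beside 12.4% of 18566 genes), spns2 and ackr3b (2.43, SE 0.73, adjusted p = 0.0391), and 1 less (beside 5.26%). cxcl12a differed there by -3.06 (adjusted p = 0.0524), and by -3.53 with the block (adjusted p = 0.0208), and it was also called with RLE size factors, with DESeq2 and with no filter on low counts (-3.25 to -3.08). Here leaving out 1 library lost the call of ackr3b in 7 of 12 fits and that of cxcl12b in 5, and spns2 kept it in all 12. All fits against the whole fish took 1 spread estimate per gene over both tissues, and the whole fish replicates varied most.

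In the level of the pulldown, 2 members were higher in skin than in the whole fish (beside 21.9% of genes), ackr3b by 2.39 (SE 0.48, adjusted p = 0.00475) and spns2 by 0.91 (SE 0.26, adjusted p = 0.0226), and 1 was lower (beside 12.9%), cxcl12b, which differed by -1.85 (SE 0.31, adjusted p = 0.00244). In muscle 4 members were higher than in the whole fish (beside 20%). ackr3b differed most, by 4.42 (SE 0.52, adjusted p = 0.000435), followed by s1pr1 at 3.29 (SE 0.73, adjusted p = 0.00735), spns2 at 2.78 (SE 0.28, adjusted p = 0.000255) and cxcl12b at 0.98 (SE 0.30, adjusted p = 0.0284). The 1 member lower in muscle (beside 15.7%) was cxcl12a, which differed by -2.60 (SE 0.75, adjusted p = 0.0225). Over all genes the median difference in pulldown level from the whole fish was 0.42 for skin and 0.14 for muscle. The order of the mean cxcl12b pulldown levels was therefore muscle (1540 CPM), whole fish (782 CPM) and skin (217 CPM), and that of spns2 was muscle (526 CPM), skin (143 CPM) and whole fish (76.4 CPM), with each step past the test. With scaling by library size alone, cxcl12b did not differ past the test between skin and whole fish (-0.099, adjusted p = 0.853), and the call of cxcl12a in muscle was lost (-1.38, adjusted p = 0.186). The step of cxcl12b from muscle to whole fish was lost without muscle pulldown replicate 2 or 3 or whole fish pulldown replicate 2, and that of spns2 from skin to whole fish without skin pulldown replicate 3. The call of cxcl12a was lost without muscle pulldown replicate 1 or 3 or whole fish pulldown replicate 3.

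The genes around the members were described from lists of the same pathways. Of the enzymes and carriers of S1P metabolism, 2 of 11 tested were enriched in skin and 1 was depleted, 4 of 9 were enriched in muscle with 0 depleted, and 1 of 11 was enriched in the whole fish with 3 depleted. These shares stand beside 21.5%, 22.8% and 11.3% of all genes enriched and 18.2%, 21.0% and 15.5% depleted in skin, muscle and whole fish, which are also the background of the lists that follow. The median log2 fold change of the list was 0.24 for skin, 1.13 for muscle and -2.20 for whole fish, the last the same with the 1 gene at 0 in all pulldowns put at its bound (3 counts per library). plpp3, a lipid phosphatase that dephosphorylates S1P and lysophosphatidic acid, was the highest of the list in skin at 1.96 (SE 0.23). sphk2, a kinase that makes S1P, was the highest in muscle at 2.95 (SE 0.37) and in the whole fish at 2.66 (SE 0.35), and was at 0.75 (SE 0.24) in skin. spns1, a lysosomal relative of spns2, was the lowest in skin at -1.52 (SE 0.22) and was enriched in muscle at 1.22 (SE 0.25).

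Of the other receptors for S1P and lysophosphatidic acid, 0 of 6 were enriched in skin and 2 were depleted, 3 of 5 were enriched in muscle and 1 was depleted, and 0 of 5 were enriched in the whole fish with 1 depleted. s1pr5a was the highest of this list in each tissue, at 1.05 (SE 0.25) in skin, where it stayed under the fold threshold, at 2.89 (SE 0.26) in muscle, where it was called, and at 1.40 (SE 0.62) in the whole fish, where it was not. lpar5a, a receptor for lysophosphatidic acid, was the lowest in each, at -1.97 (SE 0.29), -3.38 (SE 0.47) and -6.20 (SE 1.16), and was called depleted in all 3.

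Of the other chemokines, 8 of 12 tested were depleted in skin, 8 of 10 in muscle and 7 of 14 in the whole fish. Their medians were -2.48 for skin, -3.21 for muscle and -2.32 for whole fish, the last the same with 2 genes at 0 put at their bound. These counts stand beside 18.2%, 21.0% and 15.5% of all genes depleted. The only enriched gene among them was cxcl20, in muscle at 3.72 (SE 0.88) and in the whole fish at 3.46 (SE 0.45), and it failed the filter in skin. cxcl14 was the lowest in muscle at -5.20 (SE 0.31). Of the other chemokine receptors, 4 of 6 were depleted in skin, 2 of 4 in muscle and 2 of 3 in the whole fish. ackr2, a scavenger of inflammatory chemokines, was the only one enriched, at 2.04 (SE 0.32) in skin and 2.89 (SE 0.33) in muscle, and ccr9a was depleted in all 3 tissues, at -2.20 (SE 0.27) in skin and -3.95 (SE 0.46) in muscle, and with 0 counts in the whole fish pulldowns against a mean of 6.19 CPM in the input.

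Among the G protein alpha subunits, arrestins and receptor kinases that act below these receptors, 2 of 13 were enriched in skin, 7 of 9 in muscle and 1 of 13 in the whole fish, and 1, 0 and 0 were depleted. The receptor kinase grk6 was the one gene of the lists called enriched in all 3 tissues, at 2.51 (SE 0.32) in skin, 1.60 (SE 0.32) in muscle and 3.23 (SE 0.55) in the whole fish. gnai2a, an inhibitory G protein subunit, was the highest of its list in muscle at 2.91 (SE 0.35).

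The genes whose levels ran most like those of a member were found by the Pearson correlation of log2(CPM + 1) over the 18 libraries, among 13513 genes. This is a description only, since the libraries share tissues and fractions. spns2 ran closest to sema7a (0.990), kdrl (0.990) and cdh5 (0.980). cxcl12b ran closest to vcam1a (0.986), notchl (0.985) and jam2a (0.982), and s1pr1 to lfng (0.976), slc26a10 (0.965) and mob2b (0.964). ackr3b ran closest to si:ch211-1a19.3 (0.967), aoc2 (0.967) and tppp3 (0.959). The likeness of cxcl12a was looser, with CRABP2 (0.852), MAP2K6 (0.842) and LXN (0.797) as its nearest genes.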

How the data were processed

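The authors sequenced unstranded, poly(A)-selected SMART-seq V4 libraries of adult fish, aligned cutadapt-trimmed reads to GRCz11 using hisat2, and deposited raw, unnormalised counts per Ensembl gene. The counting program is not given in the sources used here. Without strand, reads of a gene and of one overlapping it on the other strand cannot be told apart. Of 36 columns, 18 were used, and the other 18 (liver, heart, brain) could not be assigned to samples. Among the tissues with columns under their own initial, only skin lacked replicate 2. That replicate was taken from the only column letter that held a single replicate, number 2.

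The tests were run in R 4.3.3 with edgeR 4.0.16, after filterByExpr and TMM scaling, in a separate quasi-likelihood fit per tissue; SEs were derived from the log2 fold change and its test statistic. TMM takes most genes as unchanged, which a pulldown need not meet. Log2 ratios within a library used 0.5 added to counts, and ratios of pulldown to input per replicate 0.5 CPM. The p-values set a difference against the spread between replicates of pooled fish. The script was tested on simulated data. Replicate numbers paired the libraries of a tissue: deviations from group means of same-numbered pulldown and input correlated at 0.386 to 0.421 (skin), 0.368 to 0.493 (muscle) and 0.171 to 0.185 (whole fish), against -0.37 to -0.04 for different numbers. Deviations from a mean of 3 libraries sum to 0, so values under 0 for different numbers follow in part from those above 0 for the same number. The main tests and the exact permutation tests took the libraries as unpaired. Alternatives were library size alone, RLE factors, DESeq2 1.42.0, no low-count filter, two-sided tests, the replicate block, a joint fit, and leaving out each library. Members and lists were chosen with earlier results of these data known. From the lists, genes were named if enriched in all tissues or highest or lowest of a list in a tissue, and the likest genes by correlation among those with at least 5 CPM in a group.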

Additional observations from a re-analysis of the deposited data

Results flagged for a closer look

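The enrichment of members differed between tissues in 12 tests of the interaction, each two-sided with edgeR's quasi-likelihood test and Benjamini-Hochberg adjustment over all genes. These are the ones that passed, out of all members tested in each pair. Of all genes, 11.4% were called more enriched in skin than in muscle and 12.4% less. For skin against whole fish these shares were 17.4% and 4.42%, and for muscle against whole fish 12.4% and 5.26%. Skin minus muscle was -3.11 for cxcr4a, -1.40 for cxcr4b, -2.62 for ackr3b, -1.05 for s1pr1 and -1.201 for spns2 on the log2 scale. Skin minus whole fish was -3.30 for cxcl12a, -1.54 for cxcl12b, -2.47 for cxcr4b and 1.22 for spns2. Muscle minus whole fish was -1.60 for cxcl12b, 2.43 for ackr3b and 2.19 for spns2. Of the calls against the whole fish, only cxcl12a in skin and spns2 in muscle held in all 12 fits that left out 1 library. In a fit of all 18 libraries, ackr3b alone kept its skin minus muscle call. kdrl, whose promoter drives the tag, differed by -0.91 between skin and muscle (adjusted p = 0.116), by 1.49 between skin and whole fish (adjusted p = 0.0488) and by 2.19 between muscle and whole fish (adjusted p = 0.0171). The 13 endothelial markers had a median of -1.11 for skin minus whole fish (range -2.58 to 1.95), against 0.76 over all genes. Of these markers 2 were called more enriched in skin and 0 in the whole fish. For muscle minus whole fish their median was -0.29 (range -1.96 to 2.55), against 0.28 over all genes. There 3 were called more enriched in muscle and 0 in the whole fish.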

How the results depend on the processing

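With libraries scaled by size alone, the median over all genes became 0.87 (skin), 1.79 (muscle) and -1.01 (whole fish), so directions hold relative to that shift. Values that changed sign there were ackr3a in skin (0.32), cxcl12a in muscle (0.37), ackr3b in the whole fish (-0.18), the skin minus muscle enrichment of s1pr2 (-0.11), the muscle minus whole fish enrichment of cxcl12b (0.86) and the skin minus muscle input of s1pr1 (0.37) and spns2 (0.74). All genes enriched and depleted numbered 7094 and 783 (skin), 9249 and 485 (muscle) and 589 and 4049 (whole fish). Members depleted numbered 0 in skin and in muscle, and members enriched in the whole fish numbered 1. Members more enriched in the whole fish numbered 0 against skin and 0 against muscle, those more enriched in muscle than in the whole fish 4, those higher in the whole fish pulldown 0 against skin and muscle, and those higher in muscle input than in skin input 1. For comparisons between tissues, here and below, the share of all genes called under each alternative is not given. The same holds for the members depleted in muscle with DESeq2, with no filter on low counts and with the replicate block. A change in such a count therefore cannot be read as one of the members alone.

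With RLE factors, 0 members were more enriched in skin than in the whole fish, 2 were more enriched in the whole fish than in muscle, and 2 were higher in the whole fish pulldown than in that of skin. DESeq2 gave 2 members depleted in muscle, 4932 genes depleted in the whole fish, 2 members more enriched in the whole fish than in muscle and 2 higher in its pulldown than in that of skin. With no filter on low counts 3 members were depleted in muscle, 0 were more enriched in skin than in the whole fish and 2 were more enriched in the whole fish than in muscle. The joint fit gave 1 member, 1388 genes depleted and 2087 enriched in skin, 6889 genes depleted in the whole fish, 1 member more enriched in muscle than in skin and 2 more enriched in the whole fish than in muscle.

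With the replicate block, 2 members were depleted in muscle and 909 genes in the whole fish, the skin minus muscle value of cxcl12a was 0.15, 0 members were more enriched in skin than in the whole fish and 1 less, and 2 were more enriched in the whole fish than in muscle. Apart from these and the blocked values given beside cxcl12a, cxcl12b, cxcr4b and spns2, the block changed no other call among the member values followed across the alternatives. Differences between tissues that were not called in the main fit were in part not followed.

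Leaving out 1 library gave 0 to 2 members depleted in muscle, beside 2785 to 3155 genes depleted there. In the whole fish it gave 1 to 3 members enriched, 792 to 2393 genes enriched and 1548 to 4725 genes depleted. Whole fish fold changes on the log2 scale ran from -1.195 to 1.57 for cxcr4a, -0.12 to 0.99 for ackr3b and -0.50 to 1.11 for s1pr1. Skin minus muscle ran from -0.52 to 0.016 for cxcl12b and -0.93 to 0.98 for cxcl12a. Between skin and whole fish 0 to 2 members were more enriched in skin and 1 to 3 less, and between muscle and whole fish 1 to 4 were more enriched in muscle and 0 to 2 less. In the pulldown 1 to 5 members were higher in skin and 1 to 2 higher in the whole fish, 0 to 1 were higher in the whole fish than in muscle, and in the input 1 to 4 were higher in skin than in muscle. s1pr2 in muscle gave no value without input replicate 2 or 3, where it failed the filter.

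Over all alternatives, member values of pulldown over input kept direction and call in 111 of 117 cases for skin, 108 of 115 for muscle and 72 of 91 for whole fish. Differences in enrichment kept them in 130 of 144 cases for skin minus muscle, 40 of 72 for skin minus whole fish and 51 of 72 for muscle minus whole fish. Levels kept them in 42 of 52, 37 of 39 and 58 of 65 cases for the same pairs of pulldowns and in 78 of 91 for the inputs. These cases between tissues do not cover every tested member. Those left out had not been called in the main fit, among them the enrichment of s1pr1 and cxcr4a against the whole fish. The cause of each change was not tested. The spread between replicates, as edgeR's biological coefficient of variation, was 0.273, 0.327 and 0.849 for skin, muscle and whole fish. The alternatives for input levels were chosen after seeing the data.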
